A study of Homo sapiens with 4 samples.

Results

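The ONECUT, BCL11 and MYT1 family factors described here are 8 transcription factor genes, ONECUT1, ONECUT2, ONECUT3, BCL11A, BCL11B, MYT1, MYT1L and ST18, out of the 36601 features that each of 4 deposited matrices holds. They were chosen by symbol as whole families, and all 8 symbols were present. ONECUT3, BCL11B and ST18 entered with their difference between nitric oxide (NO) producing neurons, called nitrergic, and other neurons already known, so that difference is described for every member and tested for none. The samples are enteric ganglioids, 3D suspension aggregates of enteric neurons and their precursors, grown from the human embryonic stem cell line H9 and profiled by single-nucleus RNA sequencing (snRNA-seq). There were 2 control samples and 2 samples that received PP121, a multi-kinase inhibitor, at 2 µM from day 15 to day 20. Every sample came from the same line and passed through the same crest induction, crestosphere stage and GDNF-containing medium, so the controls differ from the treated samples in PP121 alone as far as the labels state. The labels number the replicates 1 and 2 within each treatment. The deposited annotation dates replicate 1 of both treatments to day 42 and replicate 2 to day 38. A difference of day and any other difference between the replicates thus cannot be told apart. Throughout, 4 values in a row stand for control replicate 1, control replicate 2, PP121 replicate 1 and PP121 replicate 2, and a level is in CPM, the UMIs of a gene per 1000000 UMIs of all summed nuclei.

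ONECUT factors bind DNA through a cut domain together with a homeodomain and are known from liver and pancreas development and from motor neurons, retinal horizontal cells and sensory neurons. BCL11A and BCL11B are zinc-finger factors that work with chromatin remodelling and deacetylase complexes and are known from the globin switch, lymphocytes and cortical projection neurons. MYT1, MYT1L and ST18 (also called MYT3) share zinc fingers of one kind; MYT1L is known for holding non-neuronal programmes down in neurons, and MYT1 for promoting neuronal differentiation.

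The annotated nuclei numbered 4283, 3030, 4587 and 2912, with 23348045 to 34123759 UMIs per sample and median depths of 6289 to 7071 UMIs per nucleus, and any pair of libraries shared 0 to 8 annotated barcodes. Of these nuclei, 2301, 1250, 2030 and 976 were annotated as enteric neurons. The neuron markers summed to 3775, 3492, 3938 and 4372 CPM in them, with all 12 detected in every sample. The list of 6 enteric neuron markers summed to only 23.3, 53.7, 47.0 and 115 CPM, with TLX2 at 0 in both replicate 2 samples and HAND2 at 0 in PP121 replicate 2. The list of 8 central neuron and neuroepithelial genes summed to 569.9, 356, 513 and 252 CPM, mostly PAX2 (528, 315, 476 and 210.3 CPM) and with OLIG2 at 0 in every sample, and the list of 8 sensory and placodal genes to 29.2, 75.7, 56.7 and 215 CPM, mostly EYA2. The part of these other identities in the levels below was not tested, and the annotated class name is kept only as the name of the deposited group. Annotated neurons were also not bounded alike in all samples: with 1 limit of 2500 CPM of neuron markers for every sample, 26.3%, 33.2%, 24.3% and 19.3% of them fell below it, the most in control replicate 2 and the fewest in PP121 replicate 2. Calls of members that end under this limit are given with and without it.

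In the GENCODE 29 annotation of GRCh38, the build the submitters' processing notes name, ONECUT1 lies at chr15:52756989-52791078, ONECUT2 at chr18:57435685-57491297 and ONECUT3 at chr19:1752373-1780988, with no gene on the opposite strand. BCL11A lies at chr2:60450520-60555154, BCL11B at chr14:99169287-99271524 and MYT1 at chr20:64102394-64242253, each crossed by 1 gene on the opposite strand. MYT1L at chr2:1789113-2331664 is crossed by 3, among them MYT1L-AS1. The sources used here do not say whether strand or introns were counted, so reads of these genes and of their partners cannot be told apart. RefSeq start sites (GRCh38.p14) were at hand for 6 of the 8 members. The 250 bases before the start of ONECUT1 (chr15:52790337-52790586, minus strand) and of ONECUT2 (chr18:57435124-57435373, plus strand) are shown because the levels of these family members varied together across neuron subtypes. The ONECUT1 window lies inside the GENCODE gene, whose outermost transcript starts farther upstream. They are printed 5′ to 3′, and capitals mark CG pairs:
ONECUT1: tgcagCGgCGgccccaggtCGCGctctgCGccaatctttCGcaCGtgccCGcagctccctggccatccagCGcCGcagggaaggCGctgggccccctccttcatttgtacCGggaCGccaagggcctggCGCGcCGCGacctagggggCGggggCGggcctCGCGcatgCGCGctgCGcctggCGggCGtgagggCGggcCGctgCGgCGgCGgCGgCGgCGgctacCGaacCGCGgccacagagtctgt
ONECUT2: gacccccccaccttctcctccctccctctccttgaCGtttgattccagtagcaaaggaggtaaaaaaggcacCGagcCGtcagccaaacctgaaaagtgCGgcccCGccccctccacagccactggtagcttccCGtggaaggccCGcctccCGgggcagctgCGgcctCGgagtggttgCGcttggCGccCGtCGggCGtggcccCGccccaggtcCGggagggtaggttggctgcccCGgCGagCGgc
The ONECUT1 window holds 37 CG pairs and the ONECUT2 window 20, against a median of 11 over 34788 distinct promoter windows of that length. Neither window holds the ONECUT letters ATCGAT or ATTGAT, the BCL11A letters TGACCA or the MYT1 family letters AAGTT on either strand. Of all windows, 0.653% hold ATCGAT, 5.58% ATTGAT, 9.19% TGACCA and 30.3% AAGTT, and the absence says only that these letters are not there.

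All 8 factors were higher in annotated neurons than in progenitor 1 nuclei in every sample. The share of all genes with this direction is not given here, so it is not read as particular to these factors. ONECUT1 stood at 45.5, 49.96, 65.9 and 73.7 CPM in neurons, at 5.05, 4.77, 14.7 and 6.57 CPM in progenitor 1 and at 5.03, 4.63, 13.7 and 7.10 CPM in progenitor 2. ONECUT2 reached 56.4, 40.8, 55.0 and 53.9 CPM in neurons and 5.96 to 12.0 CPM over both progenitor classes. ONECUT3 was sparse, with 5.65, 6.49, 5.23 and 8.45 CPM in neurons and 0.840 to 1.28 CPM in progenitors. For these ONECUT genes every neuron value lay above every progenitor value. After each nucleus was thinned to 2000 UMIs, 7.42, 7.38, 10.97 and 10.7% of neurons held an ONECUT1 UMI, against 2.50, 1.23, 3.03 and 1.43% of mesenchymal nuclei, at median depths of 7210.0 to 8102 and 7227 to 8401 UMIs before thinning. Without thinning the neuron shares were 17.6, 20.8, 23.6 and 25.8%.

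The BCL11 pair was less restricted to neurons. BCL11A was at 190.4, 115, 172 and 115 CPM in neurons and at 125, 111, 108 and 117 CPM in progenitor 2, against 40.7, 36.9, 41.0 and 41.1 CPM in progenitor 1. Progenitor 2 exceeded progenitor 1 in all 4 samples, and in both replicate 2 samples it lay within a few CPM of the neurons. BCL11B was at 55.5, 37.6, 54.9 and 61.9 CPM in neurons and 38.7, 34.6, 43.8 and 65.8 CPM in progenitor 2. Its level in mesenchymal nuclei was 16.8, 27.9, 16.8 and 122 CPM, and the last of these values, from 422 nuclei, was higher than in the neurons of the same sample. The other 3 mesenchymal values rest on 40, 408 and 33 nuclei. The thinned share of mesenchymal nuclei with a BCL11B UMI was 21.7% (95% Clopper-Pearson interval 17.8 to 25.9) in PP121 replicate 2 and 6.17% (4.03 to 8.98) in control replicate 2, intervals that cover counting error only.

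Among the MYT1 family, MYT1 was at 76.2, 67.3, 71.9 and 83.1 CPM in neurons and 9.90 to 14.8 CPM in progenitors. MYT1L, a marker of postmitotic neurons, was at 292, 211, 355 and 293 CPM in neurons and 12.7 to 30.4 CPM in progenitors. A MYT1L UMI was present in 32.6, 26.1, 41.1 and 34.3% of thinned neurons and in 0.494% and 1.90% of mesenchymal nuclei of the replicate 2 samples, which hold most of them. ST18, which lies at chr8:52110839-52460959 and is likewise crossed by 3 genes on the opposite strand, had 65.7, 131, 89.7 and 203 CPM in neurons against 10.5 to 15.7 CPM in progenitors. Both replicate 2 samples had more ST18 in neurons than both replicate 1 samples. In bulk sums of nuclei, fewer nuclei with a transcript and less of it per nucleus cannot be told apart. In mesenchymal nuclei ST18 was at 2.80, 9.40, 94.2 and 8.93 CPM, where the high value is 28 UMIs of 1 nucleus among 33.

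**Figure D1:**
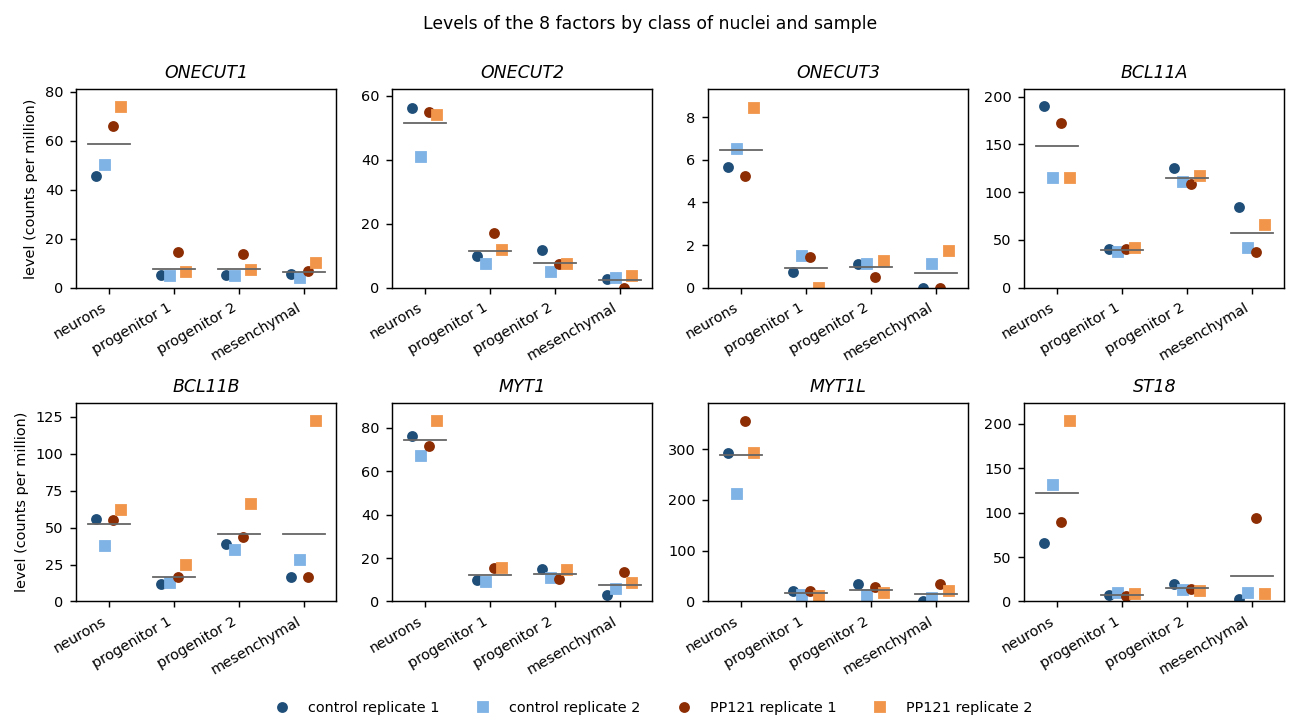
Level of each factor in CPM (vertical axes, from 0, scaled per gene) in 4 annotated classes of nuclei (horizontal axes), 1 point per sample, with a grey line at the mean of the 4 samples. Every member is higher in neurons than in progenitor 1, BCL11A keeps 108 to 125 CPM in progenitor 2, and the mesenchymal BCL11B point of PP121 replicate 2 stands at 122 CPM.

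The ONECUT genes were higher and the BCL11 genes lower in nitrergic neurons. These contrasts were in view when members were chosen, and they are given with no test. The nitrergic identity was annotated by the authors from NOS1, imputed per the methods, and a module score of NO synthesis and arginine metabolism genes, in 449, 230, 358 and 91 neurons, against 1836, 1004, 1529 and 824 other neurons. ONECUT1 was at 134, 112, 179.9 and 231 CPM in nitrergic and 24.1, 37.0, 42.1 and 57.3 CPM in other neurons, a median ratio over samples of 4.15 (range 3.03 to 5.56). ONECUT2 was at 87.1, 63.5, 83.1 and 124 CPM against 49.1, 36.7, 50.6 and 48.4 CPM, a ratio of 1.75 (range 1.64 to 2.57). ONECUT3 was at 19.1, 23.4, 17.5 and 39.5 CPM against 2.39, 2.92, 2.56 and 4.52 CPM, a ratio of 8.005 (range 6.82 to 8.74). Nitrergic neurons stood above other neurons in all 4 samples for these 3 genes and for MYT1L, as did 13.3% of all genes tested. With a UMI required, 5.36, 3.91, 4.75 and 10.0% of thinned nitrergic neurons and 0.438, 0.898, 0.263 and 0.851% of other neurons held ONECUT3.

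The remaining members went the other way. BCL11A was at 74.8, 68.0, 85.4 and 87.1 CPM in nitrergic and 219, 124, 194 and 120.5 CPM in other neurons, a ratio of 0.494 (range 0.342 to 0.723). BCL11B was at 20.2, 14.7, 19.1 and 20.9 CPM against 64.5, 43.1, 63.7 and 69.1 CPM, a ratio of 0.308 (range 0.299 to 0.342). The 4 nitrergic values of BCL11B all lay under every value of the other neurons, and so did those of BCL11A. ST18 was at 26.4, 58.9, 26.8 and 12.8 CPM against 75.7, 146, 114 and 238 CPM, a ratio of 0.292 (range 0.0537 to 0.403). Its gap was widest in PP121 replicate 2, where 11 ST18 UMIs were counted over 91 nitrergic neurons in 8 nuclei (8.79%, interval 3.87 to 16.6). MYT1 differed little, with 51.1, 63.5, 61.1 and 65.0 CPM against 82.7, 69.0, 79.9 and 88.3 CPM and a ratio of 0.750 (range 0.618 to 0.920), while MYT1L was at 354, 348, 536 and 660.5 CPM against 279, 183, 328 and 263 CPM and a ratio of 1.77 (range 1.27 to 2.52). BCL11A, BCL11B, MYT1 and ST18 were below other neurons in all 4 samples, as were 20.8% of all genes tested.

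The annotated identity differs from the presence of NOS1 itself. A NOS1 UMI was found in 52, 30, 39 and 18 neurons. Split by that UMI in place of the annotation, the median ratios kept their side of 1 for 7 members, and that of ST18 changed side, with sample ratios of 0.749, 1.66, 1.87 and 0.161. Among the 7, single samples crossed 1 for ONECUT2 (0.758 in PP121 replicate 1), BCL11A (1.01 in control replicate 2) and MYT1 (1.09 in PP121 replicate 1). These ratios scattered over samples, from 1.94 to 7.74 for ONECUT3. The central list also differed by the annotated identity, at 226, 143, 242 and 176 CPM in nitrergic and 654, 404, 600.5 and 262 CPM in other neurons, and its part in the BCL11 values was not tested.

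**Figure D2:**
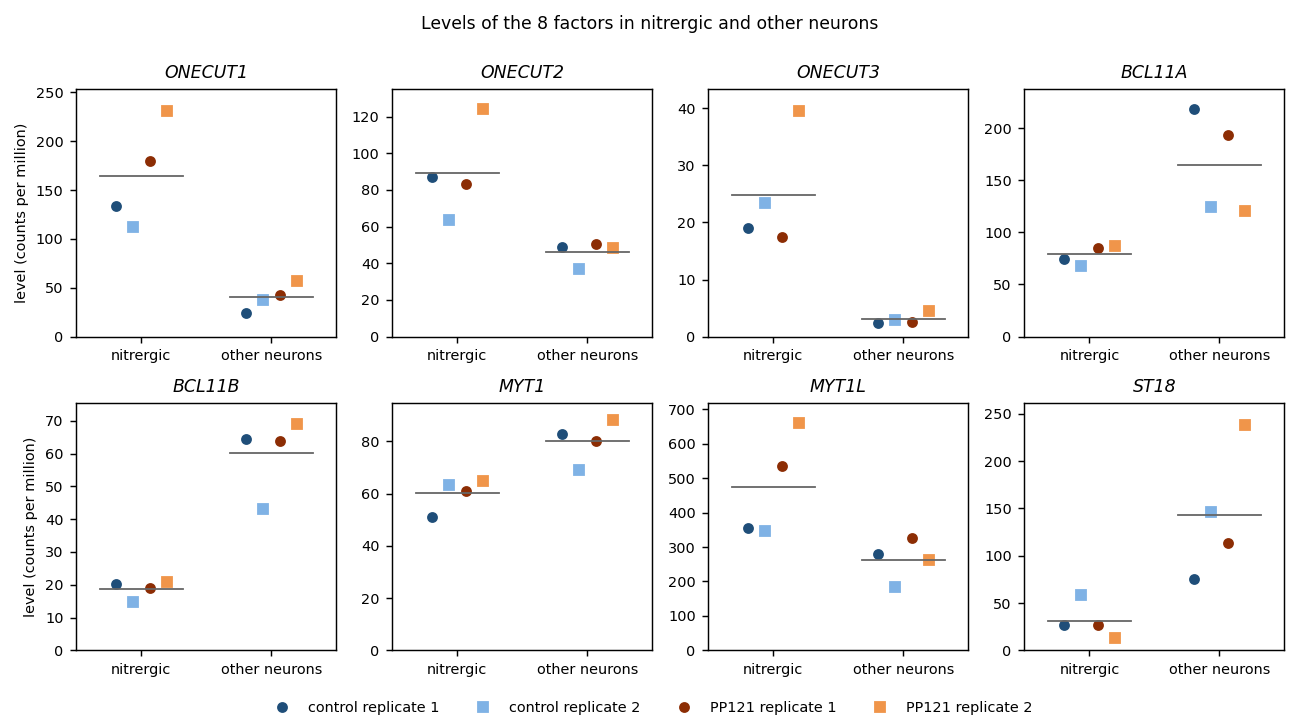
Level of each factor in CPM (vertical axes, from 0, scaled per gene) in annotated nitrergic and other neurons, 1 point per sample, grey lines at the mean of the 4 samples. The ONECUT panels and MYT1L are higher in nitrergic neurons in 4 of 4 samples, the BCL11 panels, MYT1 and ST18 lower in 4 of 4; the contrast chose ONECUT3, BCL11B and ST18 and carries no test.

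The members differed in level between neuron subtypes. The deposited subtypes are clusters named separately in control (EN 1 to EN 8) and PP121 samples (EN A to EN I), so their names were not matched and the levels are a description. ONECUT1 was highest in EN 5 of the controls, at 169.5 and 187 CPM, and in EN E of PP121 replicate 1, at 199 CPM, and lowest in EN 7 and EN G, at 5.03 and 1.23 CPM in replicate 1. In EN 8 ONECUT3 reached 36.3 and 14.5 CPM in the controls, and in EN I 26.3 and 17.0 CPM with PP121, where ONECUT2 was also highest at 172 and 134 CPM. No ONECUT3 UMI was counted in EN 3 of either control, which allows up to 0.907 and 2.51 CPM (3 counts of each sum). BCL11A was high where ONECUT1 was low. Its levels were highest in EN 7 at 508 CPM and EN G at 603 CPM, and among the lowest in EN 5 at 54.6 and 38.1 CPM and EN E at 45.8 CPM.

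ST18 was concentrated in few subtypes. It stood at 309.9 and 336 CPM in EN 6 and 206 and 335 CPM in EN 2 of the controls, and at 620.4 and 582 CPM in EN F and 189 and 323 CPM in EN B of the PP121 samples. The next subtype of the controls, EN 4, held 34.9 and 78.9 CPM. MYT1L took nearly the opposite places, with 562 and 431 CPM in EN 4, 765 CPM in EN D and 777 CPM in EN G, and only 124 and 79.9 CPM in EN 6 and 48.6 and 98.4 CPM in EN F. EN 1 of the controls, at 78.6 and 87.0 CPM, was also low in MYT1L, and no PP121 subtype but EN F was as low. MYT1 moved over a narrower range, from 38.9 and 54.5 CPM in EN 5 to 126 and 84.3 CPM in EN 2. BCL11B was at 123 CPM in EN 7 and 102 and 114 CPM in EN H, against 14.2 and 16.3 CPM in EN 5 and 3.72 CPM in EN E.

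**Figure D3:**
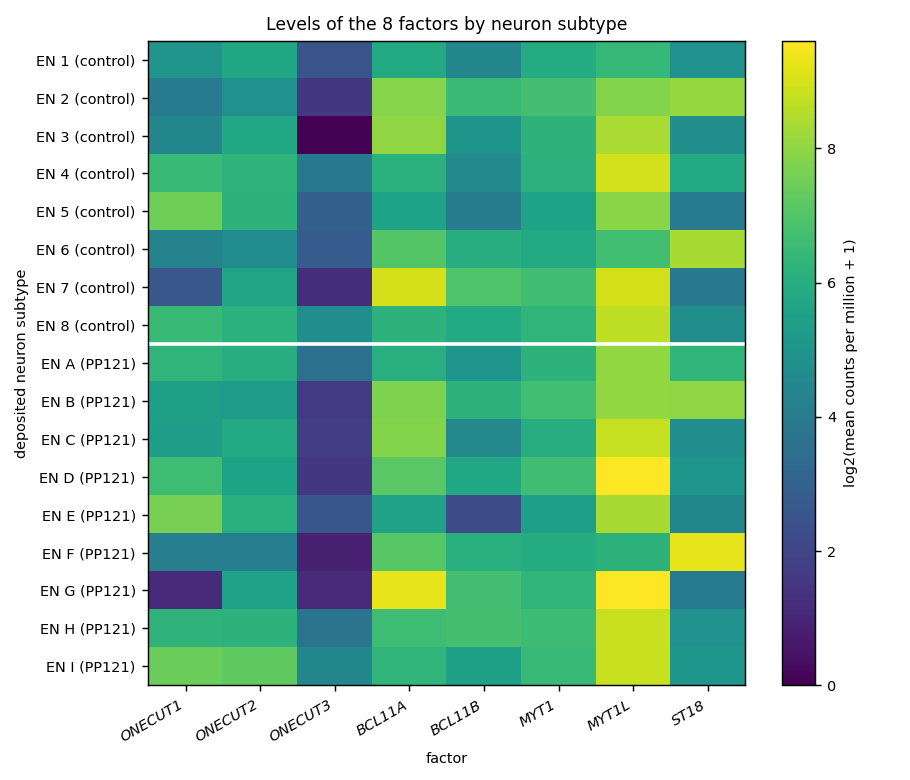
Heat map of log2(mean CPM + 1) for the 8 factors (columns) in deposited neuron subtypes with at least 30 nuclei in a sample (rows, control above and PP121 below the white line), averaged over the samples that hold the subtype. ST18 is brightest in EN 2, EN 6, EN B and EN F, BCL11A in EN 7 and EN G, and ONECUT3 is dark outside a few rows.

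Annotated nitrergic neurons were themselves divided into deposited subtypes (1 to 5 in control, A to E with PP121), which differed in these factors. ONECUT1 was at 229 CPM in Nitrergic 2 and 248 CPM in Nitrergic B, but only 29.2 CPM in Nitrergic 4 and 60.8 CPM in Nitrergic E. Those last subtypes held more BCL11A, 257 and 159.5 CPM against 45.0 and 37.6 CPM. ONECUT3 was concentrated in Nitrergic 3 at 53.1 CPM, where BCL11B was only 2.31 CPM, and no ONECUT3 UMI was counted in Nitrergic E, which allows up to 7.60 CPM. Most of these values come from 1 sample, the only one with 30 nuclei of that subtype.

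Over 30 sums of a subtype in a sample, 17 subtypes in all, the 3 ONECUT genes rose and fell together (Pearson r 0.64 for ONECUT1 with ONECUT2, 0.64 with ONECUT3, and 0.61 for ONECUT2 with ONECUT3, on log2(CPM + 1)). ONECUT1 ran against BCL11A with r = −0.81, and ONECUT2 against ST18 with r = −0.73. BCL11B and MYT1 followed each other at r = 0.74. ONECUT2 with MYT1L (r = 0.64) and BCL11A with BCL11B (r = 0.59) were near the ONECUT pairs, so such values were not particular to the ONECUT genes. These sums share 4 libraries and a clustering that used the same counts, so the coefficients are descriptions and carry no p. Among 11297 genes of at least 10 CPM there, the closest to ONECUT1 were LUZP2 (r = 0.87), KHDRBS3 (r = 0.86) and AC011306.1 (r = 0.84), and among the closest to ONECUT2 were SPOCK1 (r = 0.86) and MACROD2 (r = 0.86). The closest to BCL11A were ZNF519 (r = 0.84), SRF (r = 0.82) and PDE9A (r = 0.81), and to BCL11B FHOD3 (r = 0.77), MYT1 (r = 0.74) and KDM6B (r = 0.72). For MYT1 they were AC004943.2 (r = 0.80), RESF1 (r = 0.76) and VOPP1 (r = 0.76), for MYT1L PHACTR1 (r = 0.90), AC015961.2 (r = 0.90) and CUX2 (r = 0.90) and for ST18 CASC9 (r = 0.92), AC100800.1 (r = 0.91) and PSD3 (r = 0.90). ONECUT3 was under 10 CPM and was given none.

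Single nuclei, thinned to 2000 UMIs, were compared for members detected together. Of neurons with an ONECUT1 UMI, 8.28, 9.78, 9.35 and 8.08% held BCL11A, against 25.2, 15.8, 23.2 and 18.1% of neurons without. Of neurons with an ST18 UMI, 1.20, 2.98, 4.23 and 3.89% held ONECUT1 and 25.9, 15.5, 16.9 and 23.3% MYT1L, against 7.92, 8.18, 12.2 and 12.6% and 33.3, 28.1, 44.1 and 37.5% of the rest. Of the few neurons with an ONECUT3 UMI, 28.1, 16.7, 33.3 and 25.0% held ONECUT1, against 7.13, 7.33, 11.1 and 10.6% without. Each of these differences had the same direction in all 4 samples. These shares are descriptions, since nuclei of a sample are not replicates.

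With nitrergic neurons set aside, the other transmitter identities offered a contrast that had not chosen the members. Neurons with and without an annotated identity were compared in each sample with edgeR's quasi-likelihood test, the sample as a block, and Benjamini-Hochberg adjustment over all genes. The identities overlap and a neuron can carry several, so the tests are not independent of each other. The identities were also annotated from the same counts that are tested, and the study's methods use imputed values downstream. A gene that varies with a transmitter's genes can thus differ with its identity partly through the annotation. The p-values do not allow for this. In the order used throughout, 710, 234, 576 and 86 neurons were cholinergic, 830, 296, 687 and 133 GABAergic, 502, 474, 607 and 567 glutamatergic and 359, 382, 586 and 378 catecholaminergic, with 411, 188, 557 and 172 serotonergic. Of the 8 members 4 differed with the cholinergic identity, where 12.5% (6.71% higher and 5.83% lower) of genes passed. ST18 was at 29.9, 49.8, 27.9 and 52.2 CPM in cholinergic and 105, 177, 168 and 259 CPM in the rest, a log2 difference of −2.04 (SE 0.13, adjusted p = 3.88e-07), lower in 4 of 4 samples with no overlap. BCL11A was at 321, 212, 341 and 169 CPM against 154, 95.5, 100.4 and 115 CPM, higher by 1.25 (SE 0.14, adjusted p = 6.42e-05) in 4 of 4 samples. MYT1L was at 367, 276, 462 and 319.8 CPM against 223, 153, 242 and 256 CPM, higher by 0.80 (SE 0.10, adjusted p = 0.000103) and in every sample. ONECUT1 was at 11.2, 37.0, 22.2 and 57.7 CPM against 32.2, 37.0, 54.7 and 57.2 CPM, with a fitted difference of −0.70 (SE 0.21, adjusted p = 0.0473). That call rests on the replicate 1 samples, since replicate 2 hardly differed, and the fit gave −0.44 (adjusted p = 0.229) without control replicate 1 and −0.48 (adjusted p = 0.323) without PP121 replicate 1. The adjusted p was 0.12 by DESeq2, 0.0618 with the limit on neuron markers, 0.132 without the 10% of nuclei with the most UMIs and 0.0551 with at least 10 counts in every sum. The central list summed to 1009, 953, 1166 and 1091 CPM in cholinergic and 431, 225, 240.2 and 167 CPM in other neurons, and the sensory list to 10.1, 16.0, 8.55 and 45.3 against 45.0, 105, 95.8 and 271 CPM, and their part in these differences was not tested.

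With the GABAergic identity 4 members passed, where 6.91% (4.07% higher and 2.83% lower) of genes did. ST18 was at 33.0, 55.3, 42.5 and 71.3 CPM in GABAergic and 117, 188, 175 and 270.2 CPM in the rest, −1.81 (SE 0.08, adjusted p = 7.39e-07) on the log2 scale. BCL11A was at 243, 186, 302 and 148 CPM against 195, 95.3, 101 and 115 CPM, 0.90 (SE 0.18, adjusted p = 0.0109), and its adjusted p was 0.129 without control replicate 2. BCL11B was at 45.8, 33.1, 51.4 and 32.2 CPM against 82.7, 47.7, 74.3 and 76.3 CPM, −0.66 (SE 0.12, adjusted p = 0.00607). The 2 BCL11 genes differed in opposite directions, each in 4 of 4 samples. ONECUT3 was at 1.75, 0.704, 0.739 and 0.869 CPM against 3.01, 3.95, 4.12 and 5.22 CPM, −1.64 (SE 0.40, adjusted p = 0.0325), on few UMIs, and missed the threshold without control replicate 2, PP121 replicate 1 or PP121 replicate 2 (adjusted p = 0.164, 0.206 and 0.0741) and with the limit on neuron markers (adjusted p = 0.0804). Here the central list stood at 782, 846, 1071 and 1086 CPM in GABAergic and 530.1, 197, 197 and 103 CPM in other neurons, and the sensory list at 8.19, 21.1, 9.06 and 20.9 against 54.4, 113, 107 and 292 CPM; their part was again not tested.

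In glutamatergic neurons ST18 was higher. It was at 152, 230.4, 159 and 271 CPM in glutamatergic and 44.7, 50.1, 79.3 and 141 CPM in the rest, 1.45 (SE 0.15, adjusted p = 0.000101), higher in 4 of 4 samples. BCL11A was at 173, 115, 157 and 119.7 CPM against 237, 134, 222 and 123 CPM, −0.34 (SE 0.08, adjusted p = 0.0193), and MYT1L at 217, 146, 308 and 255 CPM against 303, 225, 343 and 286 CPM, −0.37 (SE 0.08, adjusted p = 0.0162). Both were lower in 4 of 4 samples by less than ST18 was higher. The MYT1L call was lost without either control sample and the BCL11A call without either control sample or PP121 replicate 1 (adjusted p = 0.0998 and 0.122 for MYT1L without control replicate 1 or 2, and 0.138, 0.0597 and 0.101 for BCL11A). The sensory list was at 64.9, 132, 90.4 and 246 CPM in glutamatergic and 18.0, 28.7, 40.0 and 251 CPM in other neurons, higher in 3 of 4 samples, and the central list at 512, 314, 465 and 223 against 712, 506, 705 and 375 CPM, lower in 4 of 4; their part was not tested. These 3 members passed where 8.89% (4.74% higher and 4.14% lower) of genes did.

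The catecholaminergic contrast, in which 4.68% (2.14% higher and 2.55% lower) of genes passed, called 4 members. ONECUT2 was at 64.2, 48.0, 66.8 and 54.2 CPM in catecholaminergic and 45.4, 29.8, 40.1 and 43.5 CPM in the rest, 0.56 (SE 0.10, adjusted p = 0.00731). BCL11A was at 126, 73.0, 111 and 120.0 CPM against 241, 155, 248 and 121 CPM, −0.81 (SE 0.16, adjusted p = 0.0127), with 3 clear gaps and almost none in PP121 replicate 2. ST18 was at 71.0, 87.3, 45.1 and 124 CPM against 76.9, 181, 158 and 335 CPM, −1.12 (SE 0.20, adjusted p = 0.00854). MYT1 was higher by 0.34 (SE 0.08, adjusted p = 0.0425), at 97.0, 81.1, 87.7 and 103 CPM against 79.2, 61.7, 74.9 and 75.6 CPM. All 4 calls were lost without control replicate 2 or without PP121 replicate 1, where the adjusted p of ONECUT2 was 0.0797 and 0.0832, of BCL11A 0.119 and 0.125, and of ST18 0.0759 and 0.0831. The MYT1 call was lost without any 1 of the 4 samples (adjusted p = 0.0534 to 0.229) and with the limit on neuron markers (adjusted p = 0.155), and DESeq2 called only ONECUT2 and BCL11A. The central list was at 481, 229, 327 and 222 CPM in catecholaminergic and 697, 509, 778 and 296 CPM in other neurons, lower in 4 of 4 samples, and the sensory list at 45.6, 49.5, 64.7 and 145 against 28.1, 104, 60.03 and 334 CPM, lower in both replicate 2 samples; their part was not tested. ONECUT1 and ONECUT3 were higher in 4 of 4 samples with fitted differences of 0.56 (SE 0.16, adjusted p = 0.065) and 0.64 (SE 0.30, adjusted p = 0.295).

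No member was called with the serotonergic identity by edgeR, where 8.04% (4.65% higher and 3.39% lower) of genes passed, with 2 members at an unadjusted p under 0.05 and 0 by DESeq2. ST18 was at 99.4, 293, 62.1 and 233 CPM in serotonergic and 68.2, 105, 145 and 239 CPM in other neurons, higher in both controls and lower in both PP121 samples. The plot by identity sets the 5 contrasts side by side.

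**Figure D4:**
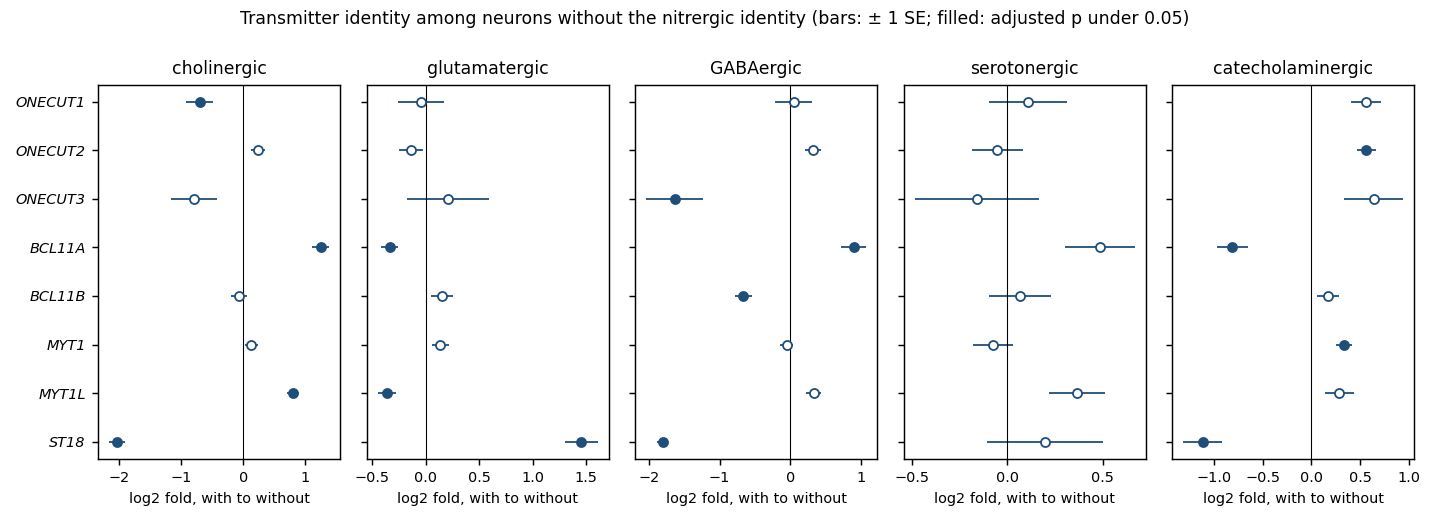
Log2 fold between neurons with and without each of 5 annotated identities, nitrergic neurons left out (horizontal axes), for the 8 factors (vertical axis); bars are ± 1 SE of the edgeR fit and filled points have an adjusted p under 0.05. ST18 lies at −2.04 and −1.81 in the cholinergic and GABAergic panels and at 1.45 in the glutamatergic one.

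Replicate 2, dated day 38, and replicate 1, dated day 42, differed in 3 members in neurons, against 9.49% (5.81% higher and 3.68% lower) of all genes (edgeR with treatment as a term). ST18, at 65.7, 131, 89.7 and 203 CPM, was higher in both replicate 2 samples, by 1.14 (SE 0.10, adjusted p = 3.76e-09) on the log2 scale. BCL11A, at 190.4, 115, 172 and 115 CPM, was lower in both, with a difference of −0.60 (SE 0.09, adjusted p = 5.95e-05). MYT1L, at 292, 211, 355 and 293 CPM, was lower within each treatment (−0.31, SE 0.09, adjusted p = 0.0232), but PP121 replicate 2 was level with control replicate 1, and DESeq2 gave an adjusted p of 0.32, and the limit on neuron markers 0.0806. The sensory and placodal list was also higher in replicate 2 (29.2 and 56.7 CPM in replicate 1, 75.7 and 215 CPM in replicate 2) and the central list lower, as given above; their part in the ST18 and BCL11A values was not tested. The other 5 members had fitted differences of −0.19 to 0.50. In progenitors, where 2.99% (1.58% higher and 1.41% lower) of genes passed, MYT1L alone was called, at 30.4, 12.7, 24.4 and 15.02 CPM and −0.87 (SE 0.22, adjusted p = 0.0162); by DESeq2 the adjusted p was 0.265, and with 1 limit on neuron markers 0.143.

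PP121 was compared with control in neurons, nitrergic neurons, other neurons and progenitors. Without a block, edgeR's quasi-likelihood test called no member, and 0% of genes, in each of the 4. At an unadjusted p under 0.05 there were 1, 3, 1 and 1 members, and DESeq2 called 0, 2, 0 and 0. For counts at an unadjusted p or by DESeq2, here and elsewhere, no share of all genes is given. With the replicate number as a block, which compares the samples within a day and leaves 1 residual degree of freedom, 3, 3, 3 and 1 members passed, against 14.8%, 10.5%, 10.1% and 1.72% of all genes. Each of the members called was higher with PP121, the direction of 7.98%, 6.79%, 5.62% and 1.16% of all genes, while 6.86%, 3.67%, 4.47% and 0.558% were lower.

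ONECUT1 was the member that PP121 samples held more of in every group of nuclei. In neurons it stood at 45.5, 49.96, 65.9 and 73.7 CPM, in nitrergic neurons at 134, 112, 179.9 and 231 CPM, in other neurons at 24.1, 37.0, 42.1 and 57.3 CPM and in progenitors at 5.04, 4.69, 14.2 and 6.93 CPM. Both PP121 samples were above both controls in each of the 4, as were 19.7%, 16.2%, 19.5% and 15.7% of all genes. In neurons the log2 fold was 0.59 (SE 0.14, adjusted p = 0.377) without and 0.59 (SE 0.11, adjusted p = 0.000415) with the replicate block. It was 0.84 (SE 0.19, adjusted p = 0.151) and 0.82 (SE 0.14, adjusted p = 5.16e-07) in nitrergic neurons, and 0.74 (SE 0.26, adjusted p = 0.439) and 0.75 (SE 0.13, adjusted p = 0.00105) in other neurons. Progenitors had 1.11 (SE 0.35, adjusted p = 0.825) and 1.07 (SE 0.29, adjusted p = 0.0388), from 65, 44, 212 and 66 UMIs, with most of the gap in PP121 replicate 1, and the fold was 0.23 under the limit on neuron markers. With 1 limit on neuron markers for all samples and the replicate block, the adjusted p was 0.0444 in neurons, 0.115 in nitrergic neurons, 0.0268 in other neurons and 0.788 in progenitors. Without the block, leaving out 1 sample leaves a group with 1 sample, so only folds of ONECUT1 are given here. In neurons the fold was 0.49 without control replicate 1 and 0.69 without control replicate 2. It was 0.70 there without PP121 replicate 1 and 0.48 without PP121 replicate 2. In nitrergic neurons it was 0.97 without control replicate 1, and the lowest of these folds was 0.64. In other neurons ONECUT1 fell to 0.42 without control replicate 1 and 0.47 without PP121 replicate 2. It was 0.98 there without PP121 replicate 1 and 1.13 without control replicate 2. In progenitors it was 0.56 without PP121 replicate 1.

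MYT1L was also higher with PP121 in neurons. In all neurons it stood at 292, 211, 355 and 293 CPM, both PP121 values above both controls by a narrow margin, as for 19.7% of all genes. In nitrergic neurons it stood at 354, 348, 536 and 660.5 CPM, both above as for 16.2% of all genes, with the groups well apart. The fold was 0.41 (SE 0.18, adjusted p = 0.421) without and 0.41 (SE 0.09, adjusted p = 0.00196) with the replicate block in neurons, 0.89 (SE 0.17, adjusted p = 0.126) and 0.88 (SE 0.12, adjusted p = 3.42e-10) in nitrergic neurons, and 0.39 (SE 0.21, adjusted p = 0.519) and 0.41 (SE 0.10, adjusted p = 0.0128) in other neurons. In nitrergic neurons DESeq2 called MYT1L (adjusted p = 0.00493) and ONECUT1 (adjusted p = 0.0368). There, with 1 sample left out, edgeR without the block gave MYT1L folds from 0.71, without PP121 replicate 2, to 1.06, without PP121 replicate 1. Without control replicate 2 and the block the fold was 0.22 (adjusted p = 0.777) in neurons and 0.16 (adjusted p = 0.883) in other neurons, and without control replicate 1 it was 0.63 and 0.69 (adjusted p = 0.967 and 0.998); in other neurons it was also 0.26 (adjusted p = 0.606) without PP121 replicate 1. The blocked MYT1L calls were not kept when 1 limit on neuron markers was added. In nitrergic neurons the SE was 0.12 with and without that limit, and what moved the adjusted p was not tested. Under 1 limit on neuron markers the fold with the replicate block was 0.29, 0.75 and 0.30 in the same order, with adjusted p of 0.097, 0.0619 and 0.119.

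For ST18 the fitted fold had opposite signs in nitrergic and other neurons, but the nitrergic fold was not called with all 4 samples. In other neurons it stood at 75.7, 146, 114 and 238 CPM, higher with PP121 within each replicate number, as 29.5% of all genes were, and called with the replicate block (0.68, SE 0.10, adjusted p = 0.000298) but not without (0.70, SE 0.42, adjusted p = 0.56). Without the block that fold was 0.03 (adjusted p = 0.996) when PP121 replicate 2 was left out and 0.27 (adjusted p = 0.998) when control replicate 1 was, against 1.30 (adjusted p = 0.407) without control replicate 2 and 1.16 (adjusted p = 0.00203) without PP121 replicate 1. Nitrergic neurons held 26.4, 58.9, 26.8 and 12.8 CPM, level on day 42 and lower on day 38, with −0.62 (SE 0.25, adjusted p = 0.097) under the replicate block and −0.80 (adjusted p = 0.441) without it. Leaving out 1 sample moved the unblocked value to −1.34 (adjusted p = 0.013) without control replicate 1, −0.17 (adjusted p = 0.94) without control replicate 2, −1.53 (adjusted p = 0.289) without PP121 replicate 1 and −0.51 (adjusted p = 0.672) without PP121 replicate 2. In all neurons the fold was 0.62 (SE 0.45, adjusted p = 0.604) without and 0.58 (SE 0.10, adjusted p = 0.000123) with the replicate block, whose adjusted p rose to 0.0523 under 1 limit on neuron markers. Without the block it was −0.12 when PP121 replicate 2 was left out, 0.18 (adjusted p = 0.985) when control replicate 1 was, 1.24 (adjusted p = 0.625) when control replicate 2 was and 1.11 (adjusted p = 0.00481) when PP121 replicate 1 was. The sensory and placodal list summed to 31.6, 83.4, 61.9 and 248 CPM in other neurons, with the samples in the same order as for ST18, and its part in the ST18 values was not tested.

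ONECUT2 was called in nitrergic neurons with the replicate block (0.49, SE 0.16, adjusted p = 0.033), at 87.1, 63.5, 83.1 and 124 CPM. PP121 replicate 2 alone was high, replicate 1 was level between treatments, and the adjusted p was 0.384 without the block and 0.426 under 1 limit on neuron markers. The unblocked fold of ONECUT2 was 0.52, and 0.34 without control replicate 2, 0.22 without PP121 replicate 2 and 0.85 without PP121 replicate 1. BCL11B reached 0.37 (SE 0.13, adjusted p = 0.0605) in neurons with the replicate block, again from replicate 2 only. In progenitors it was at 30.5, 25.1, 31.0 and 52.7 CPM, PP121 replicate 1 barely above the controls, with 0.53 (SE 0.22, adjusted p = 0.357). BCL11A did not overlap in nitrergic neurons, with both PP121 samples higher (74.8, 68.0, 85.4 and 87.1 CPM), as were 16.2% of all genes, while 33.3% had both lower. Its fold with the replicate block was 0.37 (SE 0.17, adjusted p = 0.153). ONECUT3, BCL11A and MYT1 were called in no group of nuclei, with folds of 0.19, −0.05 and 0.15 in neurons.

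**Figure D5:**
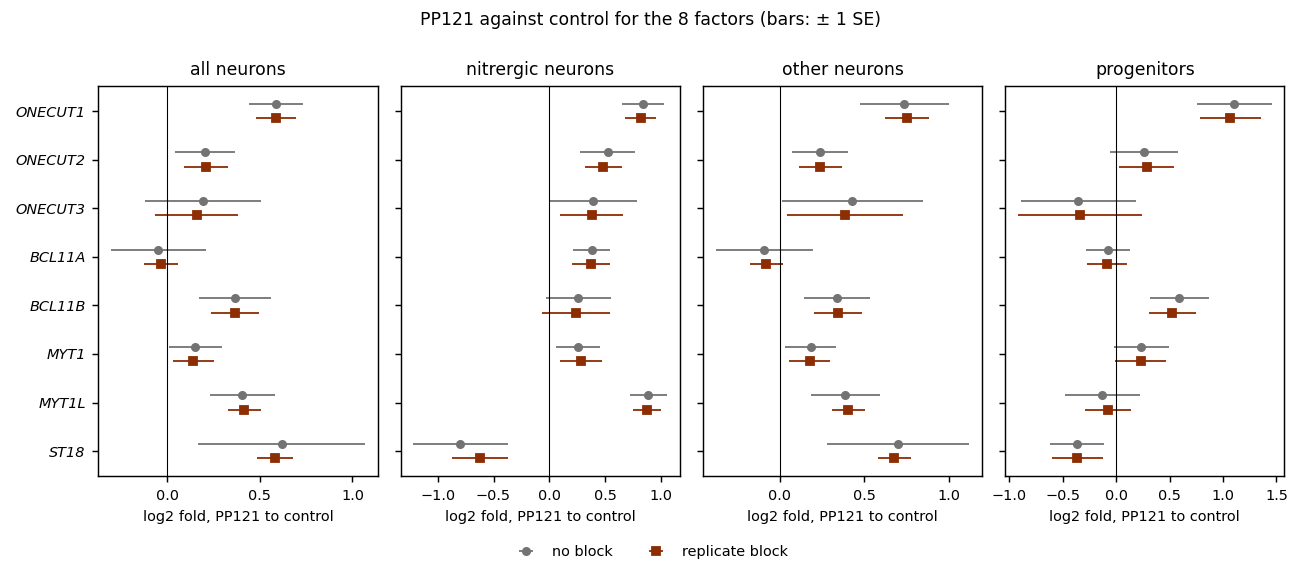
Log2 fold of PP121 to control for the 8 factors (vertical axis) in 4 groups of nuclei, fitted with edgeR without a block (grey) and with the replicate block (red); bars are ± 1 SE. ONECUT1 lies right of 0 in all 4 panels, MYT1L in the 3 neuron panels, and ST18 lies at −0.80 in nitrergic and 0.70 in other neurons without the block.

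Whether the PP121 difference differed between groups of nuclei was tested as an interaction. Between nitrergic and other neurons no member passed in edgeR, where 0.147% (0.126% higher and 0.021% lower) of genes did, with 2 members at an unadjusted p under 0.05 and 0 by DESeq2. ST18 had a difference of −1.18 (SE 0.37, adjusted p = 0.415) on the log2 scale, and MYT1L 0.47 (SE 0.20, adjusted p = 0.678). Without PP121 replicate 1 both passed, at −2.75 for ST18 (adjusted p = 2.21e-10) and 0.76 for MYT1L (adjusted p = 0.0026), a fit in which PP121 replicate 2 stands alone for its group. Between neurons and progenitors edgeR called 0% of genes and no member, with 0 members at an unadjusted p under 0.05 and 0 by DESeq2.

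Factors known to act with these families, or to share their domains, were followed as lists that were also drawn up with earlier results of these data known. Of 20 partner genes such as NR2F1, a nuclear receptor that BCL11 factors bind, the repressor REST and its corepressors, none passed with PP121 in neurons without the block. With the replicate block, against 14.8% of all genes, 2 were higher (NR2F1 0.39, ARID1B 0.31) and 1 lower (KDM1A −0.29), with a list median of 0.08 against −0.01 over all genes. In nitrergic neurons NR2F1 and ARID1B were the 2 of 20 that passed, at 0.64 and 0.44, against 10.5% of all genes. Of 4 other factors with cut domains, 3 were higher with PP121 in neurons under the replicate block, against 7.98% of all genes. Among them were CUX1 by 0.33 and CUX2 by 0.37. In nitrergic neurons 2 of 3 were higher, against 6.79% of all genes, CUX1 by 0.56 and CUX2 by 0.90. None passed without the block. With the cholinergic identity 2 of 4 were higher (6.71% of all genes), CUX1 by 0.60 and CUX2 by 0.70, and 1 was lower (5.83%).

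Other transcription factors of enteric neurons formed the last list, also drawn up with earlier results of these data known. Of 20, 17 passed the filter on low counts in neurons, and 10 of these were higher with PP121 and none lower under the replicate block, against 7.98% and 6.86% of all genes, with EBF1 at 1.00 and CASZ1 at 1.06; the list median was 0.45 against −0.01 over all genes. None passed without the block. Replicate 2 neurons held more of 12 of them and less of none, against 5.81% and 3.68% of all genes, among them ISL1 at 3.34 and CASZ1 at 1.95. With the glutamatergic identity 10 of 15 were higher and none lower (4.74% and 4.14% of all genes), and with the GABAergic identity 6 of 16 were lower and none higher (2.83% and 4.07%), EBF1 at 0.90 and −1.41 in turn. With the cholinergic identity 8 of 15 were lower (5.83% of all genes), EBF1 at −0.92 among them, and 1 was higher (6.71%), ZFHX3 at 0.27. The sensory and placodal list, given above, was also higher with PP121 within each replicate number and higher in replicate 2. It was higher in glutamatergic neurons in all but PP121 replicate 2, and lower in GABAergic and cholinergic neurons. Its part in the values of this list was not tested.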

How the data were processed

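Processed single-nucleus UMI count matrices were used as deposited, 1 per sample, with a table of the authors' classes, transmitter identities, subtypes and time points. That table also holds the authors' percent of mitochondrial and ribosomal UMIs per nucleus, not used here. Per the labels, the authors' processing used Cell Ranger and Seurat 4.0.4 with GRCh38 and set aside filtered nuclei, which were left out here; the study's methods name another quantifier for its own matrices, and strand and intron counting are not given in the sources used here. Counts were summed per sample and group of nuclei and given as CPM. Sums were tested with edgeR 4.0.16 (R 4.3.3): TMM factors, filterByExpr, the two-sided quasi-likelihood test and Benjamini-Hochberg adjustment over all genes at 0.05, with the sample as a block for identities and interactions. Replicate numbers are in the labels, and the annotation gives each number a day. Same-numbered samples deviated together (correlation of deviations 0.421 in neurons, 0.208 in nitrergic, 0.411 in other neurons and 0.283 in progenitors), so the replicate block is given beside the PP121 results. Nothing more says how far the 2 replicates of a group are independent. The p-values rest on the spread between these samples and on variances that edgeR shares across genes. The blocked PP121 fits and the replicate fits leave 1 residual degree of freedom, so there they lean on the shared variances. ONECUT2 in nitrergic neurons had PP121 to control ratios of 0.954 in replicate 1 and 1.96 in replicate 2, yet a blocked SE of 0.16. Alternatives were DESeq2 1.42.0, other filters, leaving out the 10% of nuclei with the most UMIs or 1 sample, other nuclei definitions and, chosen after seeing the data, 1 limit on neuron markers. No doublets were called. Shares of nuclei were thinned to 2000 UMIs, with Clopper-Pearson intervals (scipy 1.17.1), and intervals and floors of 3 counts cover counting error only. The fits were tested on simulated data. The members and gene lists were chosen with earlier results of these data known, some of them on these samples. Named genes are all 8 members, for each member above 10 CPM the 3 genes of highest correlation, and list genes that passed a test, of which examples are given; a few genes are not reported here. Sequences are RefSeq's.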

Additional observations from a re-analysis of the deposited data

Results flagged for a closer look

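Several differences had one sign in every sample of one side and the other sign in every sample of the other side. They were picked out for this pattern from many contrasts of the members. No share of all genes with the pattern is given, so these differences are not shown to be unusual. The sides were the 2 replicates, or control and PP121 samples. Some samples were nearly level, so their sign says little. These were replicate 2 for ONECUT1 and replicate 1 for ONECUT2 with the cholinergic identity, and PP121 replicate 2 for ST18 with the serotonergic identity. The values below are differences between the mean log2 contrasts of the 2 sides. Unless a test is named, the difference was not tested.

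By replicate, the contrast of cholinergic with other neurons differed by −1.36 for ONECUT1 (−1.36 in replicate 1 and 0.01 in replicate 2) and by −0.49 for ONECUT2 (−0.03 and 0.45). The glutamatergic contrast differed by 1.32 for ONECUT3 (0.76 and −0.56), the serotonergic contrast by 0.67 for BCL11B (0.37 and −0.30), and the catecholaminergic contrast by −0.81 for MYT1L (−0.11 and 0.70). By treatment, the glutamatergic contrast differed by −1.16 for ONECUT1 (−0.66 in control and 0.50 in PP121 samples) and the serotonergic contrast by 1.63 for ST18 (1.00 and −0.63).

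Within replicate numbers, BCL11A was higher with PP121 in nitrergic neurons and lower in other neurons, a difference of 0.38 in log2 units. The interaction test of edgeR gave 0.43 (SE 0.24, adjusted p = 0.807) for it. ST18 was higher with PP121 in neurons and lower in progenitors within both replicate numbers, a difference of 0.85, where the interaction gave 0.95 (SE 0.43, adjusted p = 0.515). Under 1 limit on neuron markers the progenitor direction turned, with ST18 at 29.9, 38.7, 31.3 and 42.5 CPM and a fitted PP121 fold of 0.11 in place of −0.36.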

How the results depend on the processing

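The counts of members called depended on the block, the filter and single samples. Other than for the replicate block, no share of all genes is given for these alternatives. Their counts show only how the calls moved. For PP121 against control, where 0 members were called without a block, the replicate block called 3 in neurons, 3 in nitrergic neurons, 3 in other neurons and 1 in progenitors, and with the limit on neuron markers added, an alternative chosen after seeing the data, 1 in neurons and 2 in other neurons. DESeq2 called 2 in nitrergic neurons, and without a filter on low counts 2 were called there and 2 in other neurons. Leaving out 1 sample gave 0 to 2 members in neurons, 0 to 3 in nitrergic neurons, 0 to 2 in other neurons and 0 to 0 in progenitors, and it moved the log2 fold of ST18 in neurons from −0.12, without PP121 replicate 2, to 1.24, without control replicate 2. Fits that leave a group with 1 sample assume that it varies like the other group.

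For replicate 2 against replicate 1, 0 members were called in neurons without the treatment term, and in progenitors 0 with DESeq2, without the 10% of nuclei with the most UMIs, with the limit on neuron markers or without the treatment term. Leaving out 1 sample there leaves no residual degree of freedom and could not be fitted. The interaction with the nitrergic identity called 1 member with no filter and 0 to 2 with 1 sample left out, and the interaction with the class 1 with no filter and 0 to 0. Among identities, with the replicate block in place of the sample block 0 were called for glutamatergic and 0 for catecholaminergic. DESeq2 called 2 for catecholaminergic, and 2 were called for serotonergic with no filter. With 1 sample left out the range was 3 to 4 for cholinergic, 1 to 3 for glutamatergic, 2 to 4 for GABAergic, 0 to 1 for serotonergic and 0 to 3 for catecholaminergic.

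Splitting neurons by a NOS1 UMI moved the median of the log2 ratios of nitrergic to other neurons to 0.91 for ONECUT1, 0.48 for ONECUT2, 1.83 for ONECUT3, −0.46 for BCL11A, −0.61 for BCL11B and 0.27 for MYT1L, and to 0.16, with the other sign, for ST18. Without thinning, the mean difference in the share of nuclei with a UMI became 36.9 points for ONECUT1, 15.7 for ONECUT2, 12.7 for ONECUT3, −17.1 for BCL11A, −15.5 for BCL11B and −4.97 for MYT1. The cause of these changes was not tested. The low counts of ONECUT3 limit its values, and 2 samples a group limit each test.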
